A study of Mus musculus with 2 samples.

Results

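Gpnmb and 8 other genes of the lipid-associated macrophage programme are described here: the membrane proteins Gpnmb, Trem2, Cd9 and Cd63, the secreted or shuttling proteins Spp1 and Lgals3, the fatty acid carriers Fabp4 and Fabp5, and the lipid droplet coat Plin2. They were chosen by gene symbol and make up 9 of the 55536 genes, and 9 of the 22028 protein-coding genes, in the deposited tables. Each symbol matched 1 gene. The samples are 2 ribosome-depleted libraries of nuclear RNA, named nucleoplasmic in the labels, from bone-marrow-derived macrophages of C57BL/6J mice. Per the labels, all cells were given Lipid A, the TLR4-activating part of bacterial lipopolysaccharide, at 100 ng/ml for 12 h, were kept without it for 12 h, and were then given 100 ng/ml again for 10 min. Both libraries therefore belong to 1 group, no untreated or singly treated cells were analysed here, and no difference between conditions was tested. The starting quantity was 1 µg of nucleic acid in replicate 1 and 500 ng in replicate 2. The replicates carry separate biosample identifiers and the same donor identifier, with no statement of separate cultures or animals, so the spread between them may be technical. Age and sex were not collected.

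Macrophages that take up much lipid, in fat tissue, plaques, fatty liver and injured brain, share an expression programme named after lipid association. In it the receptor TREM2 binds lipids and lipoproteins and signals through the adaptor TYROBP and the kinase SYK, while lysosomal proteins, fatty acid carriers and droplet coat proteins handle the cargo. GPNMB is a transmembrane glycoprotein of lysosomes and the cell surface, and its gene is a known target of the MiT/TFE transcription factors that respond to lysosomal stress.

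Replicate 1 held 24444219 expected counts on genes, and replicate 2 held 18051097. All 10 macrophage markers, such as Adgre1, Csf1r and Mertk, were detected, with a summed level of 2686 TPM in replicate 1 and 2534 TPM in replicate 2. TPM is a level scaled for transcript length and for the total of each library. In the gene tables, none of 8 adipocyte, 6 melanocyte, 6 dendritic cell, 6 neutrophil and 6 fibroblast markers was detected, and 7 of the 8 adipocyte markers had 0 counts in both libraries. In the other transcript quantification 1 adipocyte marker was detected, Adrb3, at 2.5 TPM and 2.85 TPM. Of the markers of other macrophage-related cells, 2 of 8 for osteoclasts (Acp5 and Nfatc1), 1 of 6 for microglia (P2ry12) and 1 of 6 for alveolar macrophages (Marco) were detected in the gene tables, against 2, 0 and 2 in the other quantification. In such bulk RNA a lower value cannot be assigned to fewer cells of a type or to less RNA per cell.

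All 9 genes were detected in both libraries, where detection means at least 1 TPM together with at least 10 expected counts. Of all protein-coding genes 42.9% were detected. The median of the 9 genes' mean TPM was 135, and the median over the 9443 detected protein-coding genes was 7.99. Together the 9 genes took 0.792% of all gene counts in replicate 1, and 0.801% in the other library. Their levels ran from 1359 TPM for Gpnmb to 1.68 TPM for Cd9, so the group was not expressed at a common level.

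**Figure D1:**
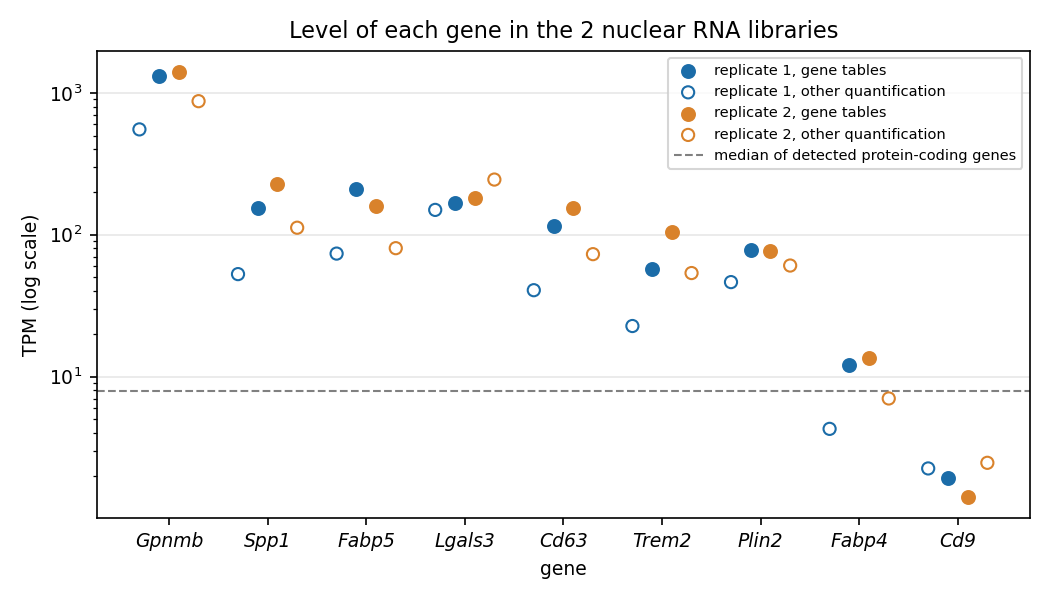
Level of each gene in TPM on a log axis, for replicate 1 (blue) and replicate 2 (orange), from the gene tables (filled points) and from the other transcript quantification (open points). The dashed line is the median of detected protein-coding genes in the gene tables, 7.99 TPM. Among the filled points, Gpnmb lies at 1317 and 1401 TPM and 6 genes lie between 57.3 and 227 TPM. The filled points of Fabp4 are just above the line, and those of Cd9 are below it. The open points of Fabp4, 4.29 and 7.02 TPM, are below the line.

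Gpnmb (ENSMUSG00000029816.10, mm10 chr6:49036546-49070929, plus strand) stood at 1317 TPM in replicate 1 and 1401 TPM in replicate 2, a mean of 1359 ± 59.8 TPM (SD, n = 2). The values rest on expected counts of 155728 and 113285, and both libraries gave nearly the same TPM in the gene tables. Gpnmb alone accounted for 0.637% of the gene counts in replicate 1 (95% Clopper-Pearson interval 0.634 to 0.640) and 0.628% in replicate 2 (0.624 to 0.631), intervals that cover counting error only. It ranked 10 among detected protein-coding genes by mean TPM, 170-fold above their median. The next 3 genes above it were mt-Cytb at 1456 ± 735 TPM (SD, n = 2), Fth1 at 1591 ± 497 TPM (SD, n = 2) and mt-Nd1 at 1646 ± 993 TPM (SD, n = 2). The next 3 below it were H2-D1 at 1317 ± 258 TPM (SD, n = 2), mt-Nd4 at 1228 ± 470 TPM (SD, n = 2) and the lysosomal protease gene Ctsb at 1220 ± 124 TPM (SD, n = 2). The replicate ranges of these neighbours overlap that of Gpnmb except for Ctsb, so its exact rank is not resolved by 2 libraries. The libraries thus also held much RNA of the mitochondrial genome, and more by TPM in replicate 2. In replicates 1 and 2, mt-Nd1 had 943 and 2348 TPM, mt-Cytb 936 and 1975 TPM, and mt-Nd4 895 and 1560 TPM. Fth1, H2-D1 and Ctsb were lower in replicate 2. Gpnmb took 62.3% of the summed TPM of the 9 genes in replicate 1 and 60.4% in replicate 2. It was 8.55-fold above Spp1 in replicate 1 and 6.17-fold above it in replicate 2. In the other quantification Gpnmb again led the group, at 552 TPM and 873 TPM.

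Trem2 (chr17:48346401-48354147, plus strand), the lipid-sensing receptor gene, stood at 57.3 TPM in replicate 1 and 105 TPM in replicate 2, a mean of 81.0 ± 33.5 TPM (SD, n = 2), from 3819 and 4834 expected counts. Replicate 2 was the higher library, and the spread was the widest of the 9 genes relative to the mean. Around Trem2, all 8 genes of its signalling and shedding were detected, led by Syk at 109 ± 2.67 TPM (SD, n = 2) and its adaptor Tyrobp at 95.4 ± 19.6 TPM (SD, n = 2). By TPM in the gene tables the receptor and its adaptor differed in opposite directions: Tyrobp had 109 TPM in replicate 1 and 81.5 TPM in replicate 2. In the other quantification both were higher in replicate 2 by TPM. There Tyrobp had 44.5 TPM and 52.4 TPM, and Trem2 had 22.7 TPM and 53.7 TPM. By the scaled counts compared below, Tyrobp was lower and Trem2 higher in replicate 2 in both quantifications. All 10 macrophage markers were also lower in replicate 2 by those scaled counts in the gene tables. The neighbouring receptor genes of the Trem locus were low: 1 of 5, Treml2 at 9.06 ± 1.62 TPM (SD, n = 2), was detected. Treml1, the next in level, had 0.69 TPM and 1.92 TPM.

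Spp1 (chr5:104435118-104441050, plus strand) encodes osteopontin, a secreted glycoprotein that binds integrins and CD44. It stood at 154 TPM in replicate 1 and 227 TPM in replicate 2, a mean of 190 ± 51.6 TPM (SD, n = 2), from 7309 and 7503 expected counts. Replicate 2 was the higher library. A same-strand locus awaiting experimental support, Gm42793, overlaps Spp1 over 1252 bases and was given 218 and 473 expected counts, so the division of reads between them is uncertain. The 4 genes that neighbour Spp1 in the bone and tooth matrix cluster on chromosome 5 (Ibsp, Dmp1, Dspp and Mepe) had 0 counts in both libraries. Of 8 osteopontin receptor genes 7 were detected, led by Itgb1 at 74.1 ± 0.177 TPM (SD, n = 2) and Itga4 at 51.0 ± 5.62 TPM (SD, n = 2). Itgb3, the beta subunit of the vitronectin receptor, was the undetected one, at 0.27 TPM and 0.96 TPM.

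Lgals3 (chr14:47367751-47386160, plus strand) encodes galectin-3, a lectin that binds beta-galactosides outside cells and on damaged lysosomes. It stood at 169 TPM in replicate 1 and 180 TPM in replicate 2, a mean of 174 ± 8.15 TPM (SD, n = 2), from 5940 and 4506 expected counts. The 2 libraries were close by TPM in the gene tables. In the other quantification Lgals3 was second of the 9 genes, at 150 TPM and 245 TPM, but there the 210-base coding transcript Lgals3-206 carried 80.1 TPM and 142 TPM, against 3.65 and 0 expected counts in the first tables. Of 8 related genes 4 were detected, led by Lgals3bp, which encodes a galectin-3-binding glycoprotein, at 329 ± 81.3 TPM (SD, n = 2), and Lgals8 at 72.8 ± 20.8 TPM (SD, n = 2).

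Fabp5 (chr3:10012548-10016607, plus strand) and Fabp4 (chr3:10204088-10208576, minus strand) lie close together on chromosome 3 and encode small cytosolic proteins that carry fatty acids. Fabp5 stood at 210 TPM in replicate 1 and 160 TPM in replicate 2, a mean of 185 ± 35.5 TPM (SD, n = 2), from 11607 and 6932 expected counts. Fabp4 stood at 12.0 TPM and 13.5 TPM, a mean of 12.8 ± 1.01 TPM (SD, n = 2), from 889 and 767 expected counts. The pair thus differed widely in level, with no overlap between libraries, and 65.5% of detected protein-coding genes lay below Fabp4. Their coding regions, 396 and 405 bases long without the stop codon, were identical at 61.1% of aligned positions. Of 8 other genes of the family 1 was detected: Fabp3, at 6.84 TPM in replicate 1 and 1.62 TPM in replicate 2, and 5 had 0 counts in both libraries. The adipocyte markers Adipoq, Lep, Retn, Cfd and Cidec, from a cell type in which Fabp4 is abundant, had 0 counts in both libraries in the gene tables. The other quantification gave Retn 0.961 TPM and 1.31 TPM, and at most 0.0123 TPM to Adipoq, Lep, Cfd and Cidec.

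Plin2 (chr4:86648386-86670060, minus strand) encodes perilipin 2, which coats lipid droplets in most cells. It stood at 78.1 TPM in replicate 1 and 76.6 TPM in replicate 2, a mean of 77.3 ± 1.07 TPM (SD, n = 2), from 4215 and 2893 expected counts. The libraries gave almost the same TPM in the gene tables, and 46.4 TPM and 60.7 TPM in the other quantification. The scaled counts compared below were lower in replicate 2. Of 23 other genes for droplet coats and for making or breaking down stored lipid, 14 were detected, beside 42.9% of all protein-coding genes. The number was 12 in the other quantification, and 8 with at least 5 TPM and 50 counts required. Highest were Soat1, which esterifies cholesterol, at 117 ± 19.5 TPM (SD, n = 2), and Acsl1, which activates fatty acids, at 25.9 ± 5.20 TPM (SD, n = 2). Among the perilipins, Plin3 was detected at 4.56 TPM and 4.98 TPM, and Plin1, Plin4 and Plin5 were not. These perilipin values were named after they were seen. Fatty acid uptake and nuclear receptor genes were mostly present, 10 of 11, led by Lipa, the lysosomal acid lipase, at 112 ± 26.9 TPM (SD, n = 2), and Lpl, the lipoprotein lipase, at 75.5 ± 33.2 TPM (SD, n = 2). Ppara was not detected and had 0 counts in both libraries.

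Cd63 and Cd9 encode tetraspanins, proteins that organise others in membranes. CD63 resides mainly in late endosomes and lysosomes, CD9 mainly at the cell surface. Cd63 (chr10:128900989-128912822, plus strand) stood at 115 TPM in replicate 1 and 155 TPM in replicate 2, a mean of 135 ± 28.5 TPM (SD, n = 2), from 4015 and 3757 expected counts. Cd9 (chr6:125460266-125494791, minus strand) stood at 1.92 TPM and 1.43 TPM, a mean of 1.68 ± 0.346 TPM (SD, n = 2), from 77 and 40 expected counts. Cd9 was therefore near the lower edge of detection: 5.41% of detected protein-coding genes lay below it, and it failed a stricter rule of 5 TPM and 50 counts that the other 8 passed. Of 19 other tetraspanin genes 11 were detected, led by the leukocyte tetraspanins Cd53 at 74.2 ± 17.1 TPM (SD, n = 2) and Cd37 at 33.5 ± 6.89 TPM (SD, n = 2). Cd9 was below every detected gene of that list in mean TPM.

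In order of mean TPM the genes were Gpnmb, Spp1, Fabp5, Lgals3, Cd63, Trem2, Plin2, Fabp4 and Cd9. The replicate ranges of Spp1 and Fabp5 overlapped, as did those of Fabp5 and Lgals3 and those of Trem2 and Plin2. The range of Spp1 also overlapped those of Lgals3 and Cd63. The order within these pairs is not resolved. Gpnmb and Spp1, Lgals3 and Cd63, Cd63 and Trem2, Plin2 and Fabp4, and Fabp4 and Cd9 did not overlap. In the other quantification the mean levels of most genes were lower: 712 TPM for Gpnmb, 82.4 TPM for Spp1, 77.0 TPM for Fabp5, 56.8 TPM for Cd63, 53.5 TPM for Plin2, 38.2 TPM for Trem2 and 5.66 TPM for Fabp4. Lgals3, at 197 TPM, and Cd9, at 2.37 TPM, were higher there.

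Many reads of a nuclear library come from RNA that still holds introns, and the annotation contains such forms as retained-intron transcripts. Of the 9 genes, 6 have both a protein-coding and a retained-intron transcript. In 3 of these 6 (Fabp4, Fabp5 and Trem2) over 50% of the expected counts lay on the retained-intron form in both libraries, a threshold set after the values were seen. Among 5972 detected protein-coding genes with both forms 10.4% did so. In the other quantification the same count was 3 of 6, against 13.2% of genes.

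**Figure D2:**
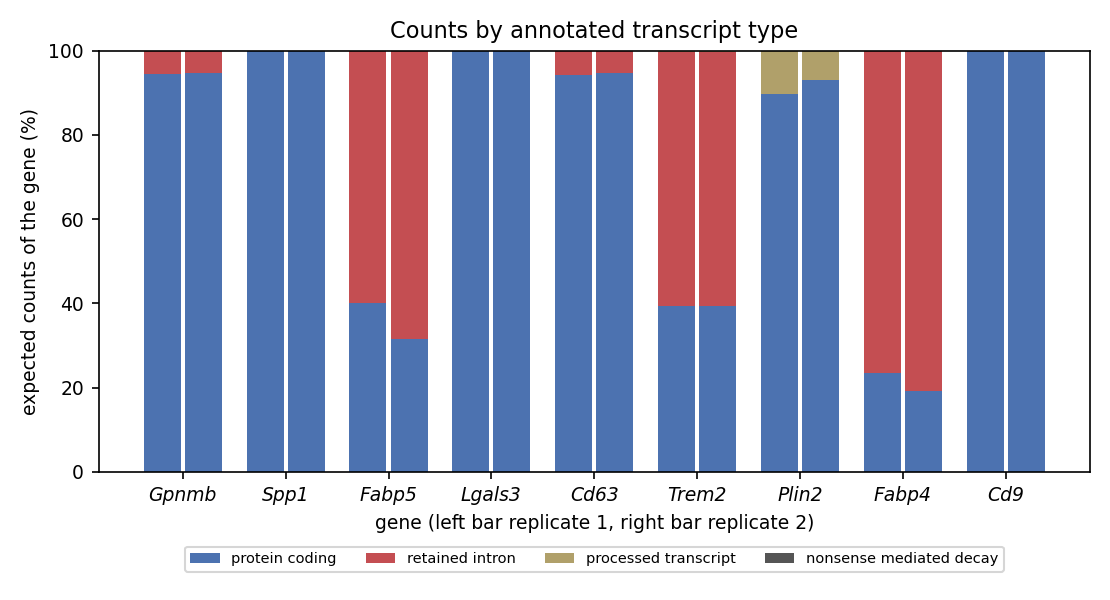
Percent of each gene's expected counts on annotated transcript types, left bar replicate 1 and right bar replicate 2 for each gene. Retained-intron transcripts (red) take 59.9% to 80.7% in Fabp4, Fabp5 and Trem2, 5.21% to 5.73% in Gpnmb and Cd63, and 0% in Cd9.

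For Fabp4 the retained-intron form held 76.4% and 80.7% of the gene's counts in replicates 1 and 2, a mean of 78.6% ± 3.02 (SD, n = 2). This was a higher share than in 98.0% and 98.1% of the genes with both forms. Fabp5 had 59.9% and 68.3%, a mean of 64.1% ± 5.97 (SD, n = 2), and Trem2 had 60.4% and 60.2%, a mean of 60.3% ± 0.135 (SD, n = 2). The libraries placed all 3 genes on the same side of 50%. Gpnmb had 5.50% and 5.25%, and Cd63 had 5.73% and 5.21%, below the medians over all such genes of 15.1% and 15.5%. A long transcript collects more reads per molecule, and on the TPM scale, which divides by length, the retained-intron shares were smaller for these 3 genes: 35.4% and 41.3% for Fabp4, 27.6% and 35.4% for Fabp5, 22.2% and 22.0% for Trem2. Cd63 also had smaller shares by TPM, 1.88% and 1.70%. Gpnmb went the other way, with 14.7% and 15.6% of TPM on its 2 retained-intron transcripts, both shorter than Gpnmb-201. By TPM the medians over all such genes were 26.4% and 27.1%. Fabp4 lay above them in both libraries, and Trem2, Gpnmb and Cd63 lay below them. Fabp5 was near the median in replicate 1 and above it in replicate 2. By TPM in the first tables, 0 of the 6 genes passed 50%, against 12.0% of genes. In the other quantification 1 of the 6 did, against 17.9% of genes: Cd9, with 64.9% and 63.1% of its TPM on Cd9-203.

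The structure of these transcripts differed from gene to gene. Fabp4-202 is a single exon of 4231 bases that holds all 3 introns of the coding transcript Fabp4-201, which is 896 bases long. Fabp5-202, of 3238 bases, holds 2 of the 3 introns of Fabp5-201. Trem2-203, of 4784 bases, holds 1 of 4 introns of Trem2-201, 1861 bases in all, and another 1874 of its bases lie beyond the end of Trem2-201, so its reads are not all intronic. Cd63-205, of 2894 bases, holds all 7 introns of Cd63-201, as Fabp4-202 does for its gene, yet its TPM was 0.0195 of that of Cd63-201 in replicate 1 and 0.0177 in replicate 2. The same ratio for Fabp4-202 over Fabp4-201 was 0.548 and 0.703. The 2 retained-intron transcripts of Gpnmb hold no intron whole and cover 1.40% and 8.87% of the intron bases of Gpnmb-201, so most intron bases of Gpnmb lie in no annotated transcript of these types.

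**Figure D3:**
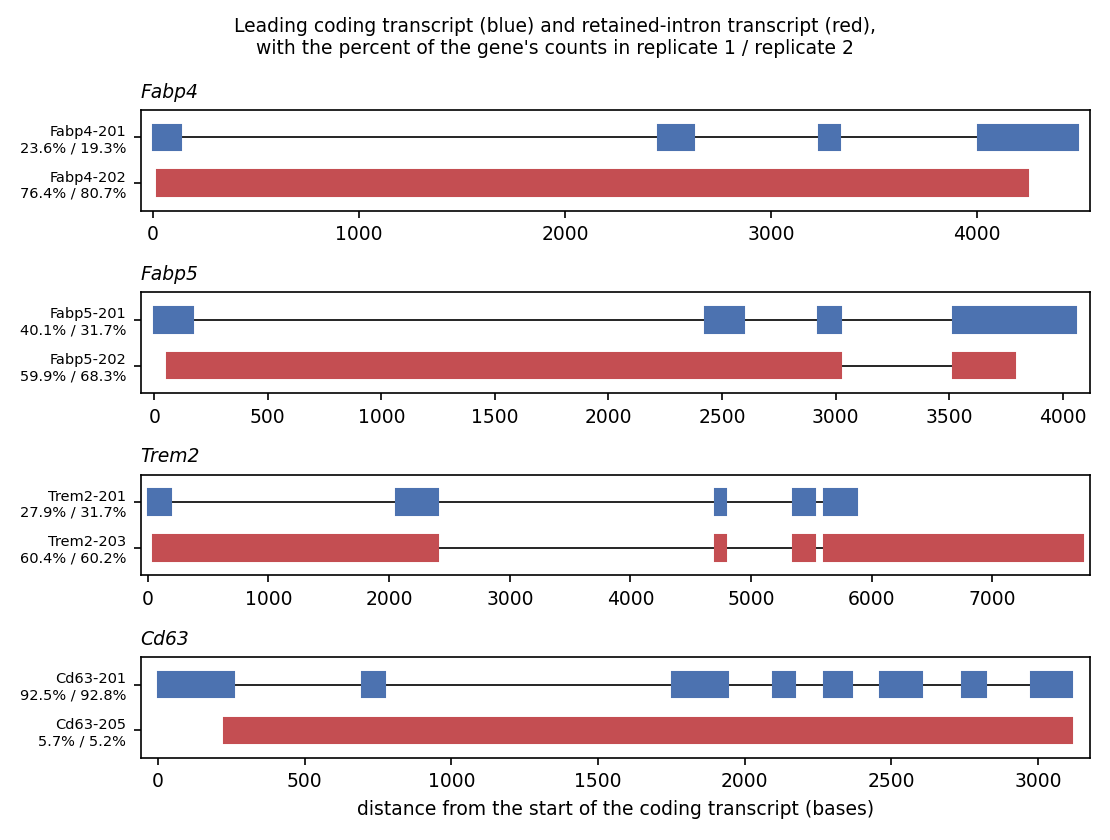
Exons (boxes) of the leading coding transcript (blue) and of the retained-intron transcript (red) of Fabp4, Fabp5, Trem2 and Cd63, to scale within each gene, in bases from the start of the coding transcript. The percentages are each transcript's share of the gene's expected counts in replicate 1 and replicate 2. Both Fabp4-202 and Cd63-205 run through all introns of their genes, with 76.4% and 80.7% of counts for Fabp4-202 and 5.73% and 5.21% for Cd63-205.

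The splice sites around the introns that these transcripts hold are shown because reads across them decide between the spliced and the intron-holding form. They were read from the GENCODE M21 transcript sequences on mm10, in the direction of the gene. Capitals mark the 15 intron bases and lower case the 15 exon bases at each site.
Fabp4 intron 1 donor, chr3:10208424-10208453, minus strand: acatgaaagaagtggGTGAGTGCTGTGGGG
Fabp4 intron 1 acceptor, chr3:10206108-10206137, minus strand: TCTTTCTCCCTGTAGgagtgggctttgcca
Fabp5 intron 1 donor, chr3:10012704-10012733, plus strand: acatgaaagagctagGTGAGATTTTATCGC
Fabp5 intron 1 acceptor, chr3:10014956-10014985, plus strand: TTTTCCATCCCACAGgagtaggactggctc
Trem2 intron 1 donor, chr17:48346581-48346610, plus strand: tgctgctgatcacagGTGGGACCACAGGAG
Trem2 intron 1 acceptor, chr17:48348442-48348471, plus strand: CTGTCTCCTCTGCAGccctgtcccaagccc
Cd63 intron 2 donor, chr10:128910457-128910486, plus strand: ctgctggccttctgcGTGAGTAGTGCGGGG
Cd63 intron 2 acceptor, chr10:128911437-128911466, plus strand: CGCCTTTTTCCTCAGgcctgtgcagtggga
All 13 introns held whole by a retained-intron transcript of these genes begin with GT and end with AG, those of Cd63 included. Fabp4 and Fabp5 share 12 of the 15 exon bases and 7 of the 15 intron bases at the first donor. Intron 1 is 2316 bases long in Fabp4, 2252 in Fabp5 and 1861 in Trem2, and intron 2 of Cd63, its longest, is 980 bases long.

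Among coding transcripts, 1 form led in each gene in the first tables. Gpnmb-201 (3701 bases) held 74.2% and 71.4% of the TPM of Gpnmb, and Gpnmb-203, the second coding form, 10.3% and 12.4%. Spp1-201 held 92.9% in both libraries, and Cd63-201 held 96.3% and 96.2%. Lgals3-203 held 76.2% and 78.8%, and Plin2-201 held 71.0% and 73.4%. Trem2 had a pair of coding forms, with Trem2-201 at 53.8% and 60.9% and Trem2-202 at 22.9% and 15.5%. The other quantification differed for several genes. It gave Lgals3-203 39.6% and 35.7% of TPM, behind Lgals3-206 at 53.5% and 58.0%. It gave Plin2-201 36.5% and 42.3%. Cd9-201 held 100% in the first tables, and in the other quantification 51.5% and 49.7% of the counts of Cd9 lay on the retained-intron transcript Cd9-203. The median over the 9 genes of the mean percent of TPM on coding transcripts was 84.2 in the first tables, the value of Gpnmb.

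Between the libraries, each gene was compared by the log2 ratio of replicate 2 over replicate 1 of TMM-normalised counts, with a 95% interval that covers counting error only. With 1 library on each side there is no test. None of the 9 genes differed by more than 2-fold, which is near the share over all genes. Of 9996 protein-coding genes that averaged at least 50 counts, 0.840% were over 2-fold higher in replicate 2 and 2.56% over 2-fold lower. The median ratio of the 9 genes was -0.12, against 0.00 for those protein-coding genes, whose SD was 0.45 and whose central 95% ran from -1.01 to 0.74. All 9 ratios lay in that range. Macrophage markers were lower in replicate 2 on this scale: all 10 had ratios below 0, with a median of -0.41. The lowest, Fcgr1, at -1.14, was the only marker outside the central 95%. By TPM relative to its median shift 9 of the 10 were below 0, and Csf1r was at 0.20. By TPM as deposited Csf1r (0.44), Mertk (0.13), Cd14 (0.12) and Mpeg1 (0.06) were above 0, and the others below. The part of this marker difference in the 9 genes' ratios was not tested.

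**Figure D4:**
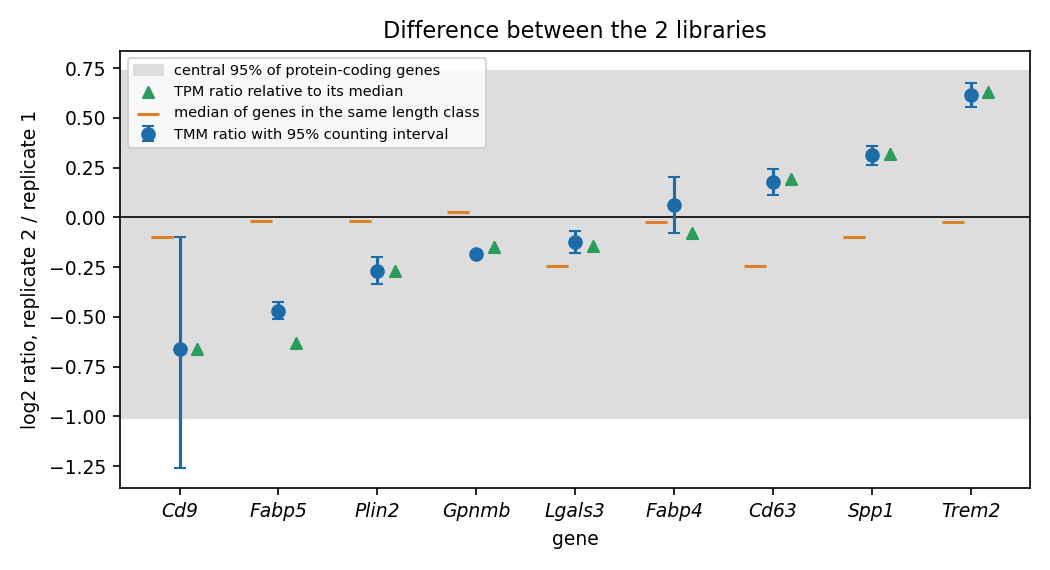
Log2 ratio of replicate 2 over replicate 1 for each gene (blue points, bars are 95% counting intervals), with the TPM ratio relative to its median over genes (green triangles) and the median ratio of genes of like transcript length (orange marks). The grey band is the central 95% of protein-coding genes, -1.01 to 0.74. Ratios run from -0.66 for Cd9 to 0.61 for Trem2, and for Fabp4 the 2 scalings lie on either side of 0.

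Trem2 had the highest ratio, 0.61 (0.55 to 0.68), above that of 95.6% of the protein-coding genes. Spp1 had 0.31 (0.27 to 0.36) and Cd63 had 0.18 (0.11 to 0.24). These 3 ratios were above 0 under all 8 scalings and quantifications tried. Fabp5 had -0.47 (-0.51 to -0.43), Plin2 -0.27 (-0.34 to -0.20) and Cd9 -0.66 (-1.26 to -0.10), below 0 under all 8. Gpnmb had -0.18 (-0.20 to -0.17) and 0.09 by TPM as deposited. Lgals3 had -0.12 (-0.18 to -0.07), with 0.039 by CPM, counts scaled only by the library total, and 0.10 by TPM as deposited. Fabp4 had 0.06 (-0.08 to 0.20), and -0.08 by TPM set relative to its median shift. For Gpnmb, Lgals3 and Fabp4 the direction thus depended on the scaling. The TPM scale itself shifted the median of all those genes by 0.24 and CPM by 0.17. Short genes had lower ratios than long ones: the median was -0.24 in the shortest of 10 length classes, which holds Lgals3 and Cd63, and 0.03 in the class of Gpnmb. With the median of its length class subtracted, Lgals3 turned from -0.12 to 0.12 and Cd63 went from 0.18 to 0.42. The other 7 genes kept their direction, and moved by at most 0.10.

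The 2 forms of Fabp5 did not fall equally. Fabp5-201, the coding form, had 4655 expected counts in replicate 1 and 2195 in replicate 2, or 152 TPM and 103 TPM. Fabp5-202, the intron-holding form, had 6952 and 4737 expected counts, or 58.0 TPM and 56.6 TPM. The coding form therefore dropped further than the intron-holding form, on a TPM scale that was itself shifted by 0.24 on the log2 scale. For Trem2 the leading coding form and the intron-holding form were higher in replicate 2. Trem2-201 had 30.8 TPM and 63.7 TPM, and Trem2-203 had 12.7 TPM and 23.0 TPM. The second coding form, Trem2-202, differed less, at 13.14 TPM and 16.25 TPM, from 438 and 376 expected counts.

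Other genes of the lipid-associated programme were compared between the libraries in the same way. Of 20 such genes 18 were detected, led by the lysosomal proteases Ctsb at 1220 ± 124 TPM (SD, n = 2) and Ctsd at 1213 ± 65.8 TPM (SD, n = 2), a little below Gpnmb. Itgax and Ch25h were not detected. The lipoprotein gene Apoe had 584 TPM and 294 TPM, a log2 ratio of -1.22, and the receptor gene Axl had 54.5 TPM and 26.1 TPM, a ratio of -1.25. Clec7a, the beta-glucan receptor gene, had 5.38 TPM and 13.7 TPM, and Atp6v0d2, a subunit gene of the vacuolar proton pump, had 1.10 TPM and 2.80 TPM. Both had a ratio of 1.10 and were named after their values were seen. In all, 7 of the 18 ratios in this list were above 0, where the median over all protein-coding genes was 0.00. Of the 18, 2 were over 2-fold higher in replicate 2 and 2 over 2-fold lower. The shares over protein-coding genes were 0.840% and 2.56%. In the lists around the other members, the genes over 2-fold apart were Fabp3, at -2.31, Tspan17, at -1.41, and Itgb3, at 1.59. In the other quantification Tspan17 was at -0.84 and Atp6v0d2 at 0.67, both within 2-fold, while Fabp3, Itgb3, Apoe, Axl and Clec7a stayed past it.

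**Figure D5:**
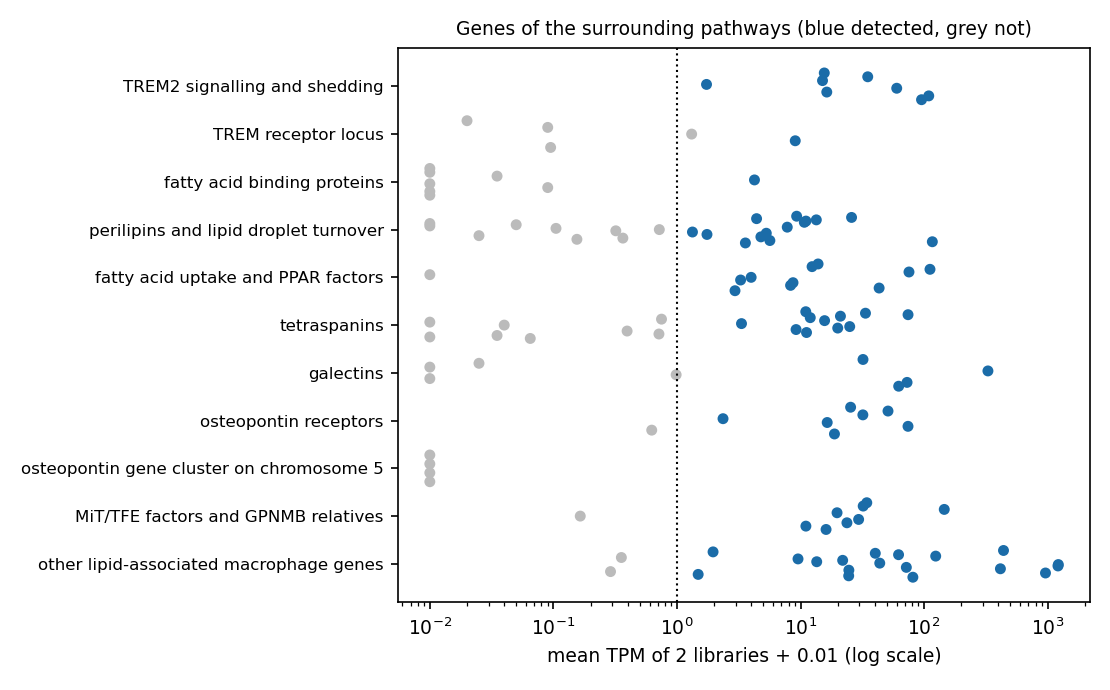
Mean TPM over the 2 libraries, plus 0.01, on a log axis for the genes of each surrounding list (blue detected, grey not). The dotted line marks the detection level of 1 TPM. All 8 genes of TREM2 signalling and shedding are blue, and all 4 genes of the osteopontin cluster lie at 0 counts at the left edge.

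The MiT/TFE factors and their regulators were present beside Gpnmb. With Sdc4 and Pmel they form a list of 9 genes, of which 8 were detected, Sdc4 among them. Highest were Fnip2 at 146 ± 32.2 TPM (SD, n = 2) and Flcn at 34.4 ± 9.24 TPM (SD, n = 2), partners that hold these factors in check. The factors themselves, named here after their values were seen, stood at 23.7 TPM for Tfe3, 19.7 TPM for Mitf, 16.1 TPM for Tfec and 11.0 TPM for Tfeb. Pmel, the melanosome gene that is the closest relative of Gpnmb, was not detected, at 0.23 TPM and 0.08 TPM.

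Promoter windows from 250 bases before to 50 after the RefSeq start (GRCm38.p6) were found for 7 of the 9 genes, 2 of them for Spp1. No window was found for Fabp4 or Fabp5, so their promoters were not searched. 5 motifs were searched on both strands. Positions below are those of the motif start from the RefSeq start. The E-box CACGTG of MiT/TFE factors was in 7.15% of 32851 promoters, and among these genes in that of Plin2, at -4. The core CATGTG was in 14.2%, and here in that of Cd9, at -38. The AP-1 site TGACTCA was in 5.20%, and here in that of Gpnmb, at 8, past the start. The Gpnmb window held neither CACGTG nor CATGTG. The nuclear receptor motif AGGTCA was in 16.3%, and here in those of Plin2, at -218, and Trem2, at -68. The TATA box letters TATAAA were in 13.6%, and here in 1 of those of Spp1, at position -211 from its RefSeq start. The windows around the matches in Gpnmb, Plin2 and Trem2 are shown with the motif in capitals, since these are the genes for lipid sensing, lysosomes and droplets in the group. No motif overlapped another in them.
Gpnmb, TGACTCA, chr6:49036515-49036544, plus strand: ccaggggcaagTGACTCAtgagcacgagtt
Plin2, CACGTG, chr4:86670045-86670074, minus strand: agctgggctatCACGTGgctcggaggcttg
Plin2, AGGTCA on the reverse strand, chr4:86670259-86670288, minus strand: ttcaggaccccTGACCTaagtcagacagca
Trem2, AGGTCA on the reverse strand, chr17:48346322-48346351, plus strand: gggaaagcagcTGACCTttactgtagaagc
These matches describe the letters of the windows only, and no binding was measured in these libraries.

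Few expected counts were assigned to near-identical copies of these genes. How many reads the copies share with the genes was not measured. Fabp5 has 5 pseudogenes with at least 90% identity over at least 200 bases, which were given 6.10 expected counts in replicate 1 and 11.2 in replicate 2, or 0.0526% and 0.161% of those of Fabp5. Cd63 has 1 copy, with 0.822% and 1.21% of its counts. Cd9 and Plin2 have 1 copy each, with at most 1 count. The other 5 genes have none.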

How the data were processed

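Nuclear RNA was measured in 2 libraries of 1 group. Per the deposited file headers, the authors' gene and transcript tables give an expected count (an estimated, not always whole, number of reads), a TPM and, for transcripts, the percent of the gene's TPM, on mm10 with GENCODE M21. A further deposited transcript table made directly from reads, called the other quantification, gives an estimated count and a TPM. Quantifiers, aligner, versions and strandedness were not given in the sources used here, and without strand, reads from overlapping antisense genes cannot be told apart. Entries that name no gene (1.06% and 0.245% of counts) were left out.

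Expected counts were rounded and scaled with TMM factors (0.945 and 1.06) from edgeR 4.0.16 in R 4.3.3 over genes averaging at least 10 counts, with 0.5 added for ratios. Alternatives were DESeq2 1.42.0 size factors, CPM, TPM ratios (0.01 added) as deposited or relative to their median, no filter, 5 added, the other quantification, and each library left out. The ratio computation was tested on simulated data. No test between conditions or libraries was possible.

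Members, gene lists and rules were chosen with earlier results of these data known. Named were all 9 members. For each list the 2 genes of highest mean TPM were named, undetected genes where at most 3 were undetected, and at most 2 genes over 2-fold apart at a mean count of at least 50. The 3 protein-coding genes next above and below Gpnmb were also named. Copies were searched with BLAST 2.17.0 among GENCODE transcripts. Protein sequences were not used here.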

Additional observations from a re-analysis of the deposited data

How the results depend on the processing

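The median log2 ratio of the 9 genes, -0.12, was 0.10 by TPM as deposited and 0.039 by CPM. Those scalings shifted protein-coding genes as a whole by 0.24 and 0.17. TPM set relative to its median was added after seeing the data and gave -0.14. The median percent of TPM on coding transcripts, 84.2, was 71.4 in the other quantification. The number of genes with most counts on retained-intron transcripts, 3, was 0 by percent of TPM. All 9 genes were detected in the other quantification and in each library alone, and 8 under the stricter rule. In the other 21 recomputations of these main results, values moved by less than their SD or counting interval, and counts by less than 1.5 times. Of the values for single genes and lists under an alternative, 34 moved further than that and 117 did not. The mean TPM of all 9 genes moved so in the other quantification, by over 1.5 times for Gpnmb, Spp1, Fabp5, Cd63, Trem2 and Fabp4.

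Protein-coding genes over 2-fold apart numbered 84 higher and 256 lower in replicate 2, or 24.7% higher. Higher genes made up 71.1% (330 and 134) by TPM as deposited, 51.8% (172 and 160) by CPM and 41.0% (193 and 278) in the other quantification. At a mean count of at least 10 the numbers were 252 and 477. No paired analysis was possible because the 2 libraries form 1 group. Depth limits Cd9 most, with 77 and 40 expected counts.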
